A study of Caenorhabditis elegans with 10 samples.

Results

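The genes described here are 35 genes that build the sarcomeres of Caenorhabditis elegans muscle and anchor them to the cell edge. They were listed by name for their known roles. They cover the thick filament, the giant proteins alongside it, the thin filament and its regulators, actin-binding proteins, attachment proteins, calcium channels, a myosin chaperone and a muscle transcription factor. All 35 were among the 17118 genes named for a single-gene probe set on the array, and each was read from its probe set with the highest mean signal over all 10 arrays. All 35 were also bright enough to be tested, out of 12061 genes tested in all.

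In nematode body-wall muscle, myosin thick filaments slide between actin thin filaments, and calcium acting through troponin and tropomyosin permits the contact. Dense bodies anchor the thin filaments and M-lines the thick ones. Both sit on integrin at the muscle membrane, which joins them to the basement membrane and through it to the epidermis and cuticle. The feeding organ, the pharynx, has its own muscle with its own myosin heavy chains. WDR-23 is a ubiquitin ligase adaptor that keeps the stress-response transcription factor SKN-1 low, so its loss raises SKN-1 activity.

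Whole animals of 3 groups were measured. Mutants of wdr-23 eating bacteria for skn-1 RNAi gave 3 arrays, here called wdr-23 skn-1 RNAi. The same mutants on control bacteria gave 4 (wdr-23 control RNAi), and the N2 wild type on control bacteria gave 3 (N2 control RNAi). The mutant allele is written wdr-23(tm1718) in the sample labels and wdr-23(tm1817) in the design text. All animals grew from synchronised L1 larvae until most were L4 larvae. They ate HT115 bacteria carrying plasmids for double-stranded RNA, on agar holding 50 ug/ml carbenicillin as antibiotic and 0.2% lactose as inducer. Each replicate pooled 200 to 500 worms, and 250 ng of total RNA was labelled for a 3′ expression array. No N2 animals on skn-1 RNAi were among the samples, so whether the effect of skn-1 RNAi depends on the genotype could not be tested. Muscle RNA was measured in whole animals, where fewer muscle cells and less RNA per muscle cell cannot be told apart.

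The labels were first set against the targeted genes. Transcript signal of skn-1 was 289, 237 and 245 in wdr-23 skn-1 RNAi, against 499, 470, 381 and 547 in wdr-23 control RNAi and 534, 413 and 417 in N2 control RNAi. It was 0.83 ± 0.14 (SE) lower on the log2 scale in wdr-23 skn-1 RNAi than in wdr-23 control RNAi (a log2 change of -0.83, limma adjusted p = 0.000708). The wdr-23 signal was 919, 904 and 882 in wdr-23 skn-1 RNAi, against 3304, 2784, 3858 and 3091 in wdr-23 control RNAi and 1026, 846 and 725 in N2 control RNAi. In the mutant on control RNAi it was thus above wild type (log2 change 1.89, adjusted p = 1.14e-08), and where this probe set lies relative to the deletion is not given in the sources used here. Array medians lay at 118 to 125.3 signal units in wdr-23 skn-1 RNAi, against 134.8 to 139.7 in wdr-23 control RNAi and 113 to 119.2 in N2 control RNAi, so the wdr-23 control RNAi arrays were all the highest.

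In wdr-23 control RNAi against N2 control RNAi, a comparison that asks what loss of wdr-23 changes with skn-1 left in place, 8 of the 35 genes rose and 0 fell at an adjusted p under 0.05. These were the giant proteins unc-22 and unc-89, the attachment genes pat-2, pat-4, unc-95 and unc-97, the calcium channel egl-19 and the transcription factor hlh-1. Their rises ran from 0.39 to 0.88 on the log2 scale. Over all tested genes 29% were called, split into 18.9% higher and 10.2% lower, against 22.9% of the 35. Without adjustment 11 were higher and 0 lower at p under 0.05, against 25.1% and 16.7% of all tested genes. The median log2 change was 0.12 over the 35 genes and 0.03 over all tested genes, and 23 of the 35 changes were above 0. Signals of both groups did not overlap for 10 genes that were higher, against 21.8% of all genes, and for 0 that were lower, against 14.1%.

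The count of 8 depended on scaling and on single arrays. When each array was centred on its median, which shifted all log2 changes by -0.20 at the median, 4 genes were higher (unc-22, pat-4, egl-19 and hlh-1) and 6 were lower (pat-10, mup-2, cpn-3, unc-78, dim-1 and unc-45). The median change under this centring was -0.08 over the 35 genes and -0.17 over all tested genes, and 21 of the 35 changes were below 0. That setting called 1385 of all 12061 tested genes higher and 3545 lower. Quantile normalization gave 8 higher and 0 lower, with 6 of the 8 shared and egl-19 and hlh-1 lost. It called 1613 of all 12062 tested genes higher and 1439 lower. Leaving out wdr-23 control RNAi replicate 4 left 5 higher, leaving out N2 control RNAi replicate 1 left 5, and leaving out N2 control RNAi replicate 2 left 4. Of the 8 genes that rose, 6 had their highest wdr-23 control RNAi signal on replicate 4 (75%), against 12 of all 35 genes (34.3%) and 26.6% of all tested genes.

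In wdr-23 skn-1 RNAi against wdr-23 control RNAi, which asks how much of the mutant's expression depends on skn-1, 4 of the 35 genes fell and 0 rose. They were the pharyngeal myosin myo-1, unc-22, pat-4 and unc-95, with falls of 0.52 to 0.58 on the log2 scale. Over all tested genes 23% were called, split into 13.1% lower and 9.94% higher, so the 11.4% of the 35 that fell was near the share across the array. Without adjustment 11 were lower and 0 higher, against 19.4% and 17.2% of all tested genes. The median log2 change was -0.20 over the 35 genes and -0.02 over all tested genes, and 30 of the 35 changes were below 0. Signals did not overlap for 12 genes that were lower, against 18.5% of all genes, and for 0 that were higher, against 15.2%. Median centring, which shifted all changes by 0.15, gave 2 higher (pat-10 and unc-68) and 3 lower. It left 20 of the 35 changes below 0, with a median of -0.06 over the 35 genes. It called 2660 of all 12061 tested genes higher and 1069 lower, with a median of 0.13 over all of them. This comparison and the one of wdr-23 control RNAi with N2 control RNAi share the 4 arrays of wdr-23 control RNAi, so their changes are not independent of each other.

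In wdr-23 skn-1 RNAi against N2 control RNAi, which asks what still differs from wild type once skn-1 is knocked down in the mutant, 1 gene fell (the troponin T gene mup-2) and 0 rose. Over all tested genes 6.67% were called, 2.55% as lower and 4.12% as higher. Without adjustment 5 were lower and 0 higher at p under 0.05, against 912 (7.56%) and 1473 of the 12061 tested genes. The median log2 change was -0.06 over the 35 genes and 0.03 over all tested genes. Signals did not overlap for 3 genes that were higher, against 15.3% of all genes, and for 5 that were lower, against 11.3%.

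**Figure D1:**
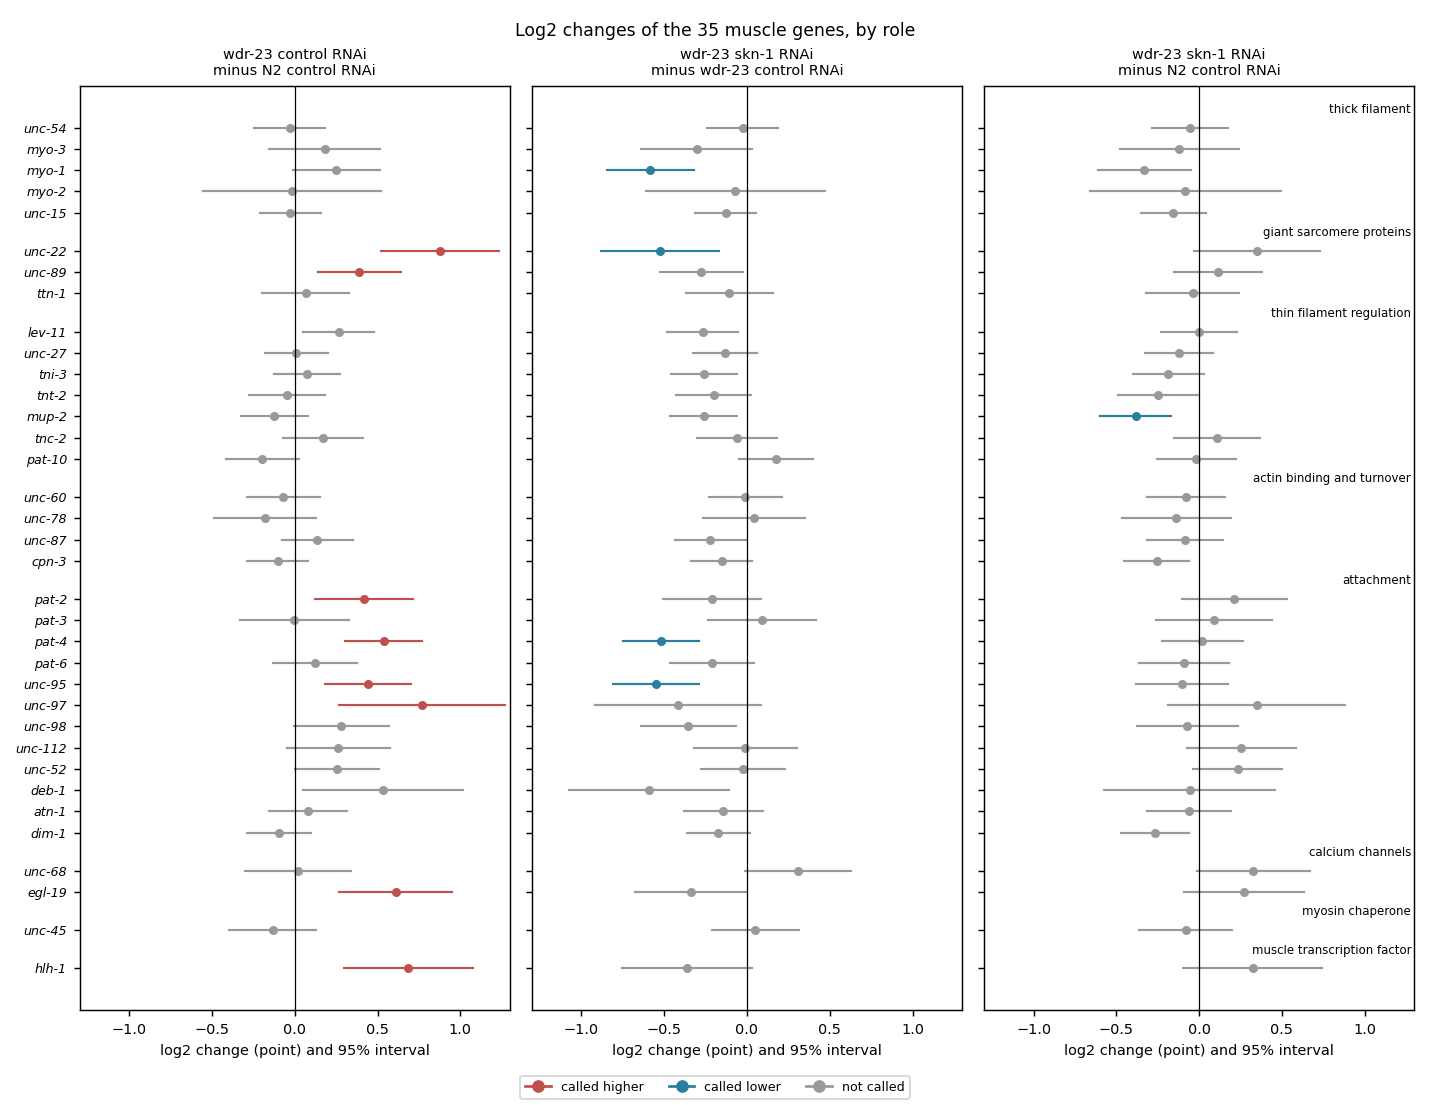
Fitted log2 changes (points) with 95% intervals (bars) of the 35 genes on the y axis, grouped by role, in the 3 comparisons (panels); red marks genes called higher, blue genes called lower and grey the rest. With wdr-23 control RNAi against N2 control RNAi 8 points are red, with wdr-23 skn-1 RNAi against wdr-23 control RNAi 4 are blue, and with wdr-23 skn-1 RNAi against N2 control RNAi 1 is blue.

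Shares called over all tested genes were 18.9% higher and 10.2% lower in wdr-23 control RNAi against N2 control RNAi, 9.94% higher and 13.1% lower with skn-1 RNAi in the mutant, and 4.12% higher and 2.55% lower in wdr-23 skn-1 RNAi against N2 control RNAi. The counts by role stand against these shares, and roles of few genes cannot be read closely against them. Of the 5 thick filament genes, 0 were called between wdr-23 control RNAi and N2 control RNAi, 1 fell with skn-1 RNAi in the mutant, and 0 were called between wdr-23 skn-1 RNAi and N2 control RNAi. At an unadjusted limma p under 0.05 the counts were 0, 1 lower and 1 lower. At that threshold 25.1% of all tested genes were higher and 16.7% lower between wdr-23 control RNAi and N2 control RNAi. The shares lower were 19.4% with skn-1 RNAi in the mutant and 7.56% between wdr-23 skn-1 RNAi and N2 control RNAi. The major body-wall myosin heavy chain gene unc-54 gave 6943, 5904 and 6347 in wdr-23 skn-1 RNAi, against 6129, 7311, 6533 and 6098 in wdr-23 control RNAi and 7293, 6607 and 6066 in N2 control RNAi. All 3 groups overlapped. Its log2 change between wdr-23 control RNAi and N2 control RNAi was -0.03 (95% interval -0.24 to 0.18), and that between wdr-23 skn-1 RNAi and wdr-23 control RNAi was -0.03 (-0.24 to 0.19). Paramyosin, the rod at the core of invertebrate thick filaments, is encoded by unc-15. Its signal was 7556, 6816 and 6853 in wdr-23 skn-1 RNAi, against 7422, 8430, 7656 and 7461 in wdr-23 control RNAi and 8179, 7957 and 7503 in N2 control RNAi. The unc-15 groups overlapped as well, with log2 changes of -0.03 (-0.21 to 0.16) for wdr-23 control RNAi against N2 control RNAi and -0.13 (-0.32 to 0.06) for wdr-23 skn-1 RNAi against wdr-23 control RNAi. For both genes these intervals lay within 0.5 of 0.

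The second body-wall myosin, myo-3, forms the centre of the thick filament. It gave 638, 660.1 and 866 in wdr-23 skn-1 RNAi, against 934, 732, 839 and 1073 in wdr-23 control RNAi and 806, 630.2 and 930 in N2 control RNAi. The groups overlapped, and its log2 changes were 0.18 (-0.15 to 0.52) for wdr-23 control RNAi against N2 control RNAi and -0.30 (-0.64 to 0.03) for wdr-23 skn-1 RNAi against wdr-23 control RNAi. A myosin heavy chain of pharyngeal muscle is encoded by myo-1. Its signal was 1090, 1393 and 1441 in wdr-23 skn-1 RNAi, against 2070, 2031, 1724 and 2021 in wdr-23 control RNAi and 1817, 1460 and 1663 in N2 control RNAi. Every wdr-23 skn-1 RNAi array lay below every other array. The fall against wdr-23 control RNAi was -0.58 ± 0.12 (SE) on the log2 scale, 1.5-fold, with an adjusted p of 0.00319. Against N2 control RNAi the log2 change of myo-1 was -0.33 (adjusted p = 0.167), and between wdr-23 control RNAi and N2 control RNAi it was 0.25 (adjusted p = 0.14).

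The other pharyngeal myosin gene, myo-2, gave 645, 503 and 488 in wdr-23 skn-1 RNAi, against 374, 601, 746 and 622 in wdr-23 control RNAi and 847, 672 and 332 in N2 control RNAi. Its groups overlapped widely. The log2 change between wdr-23 skn-1 RNAi and wdr-23 control RNAi was -0.07, with a 95% interval of -0.61 to 0.47 that includes the fall of myo-1.

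**Figure D2:**
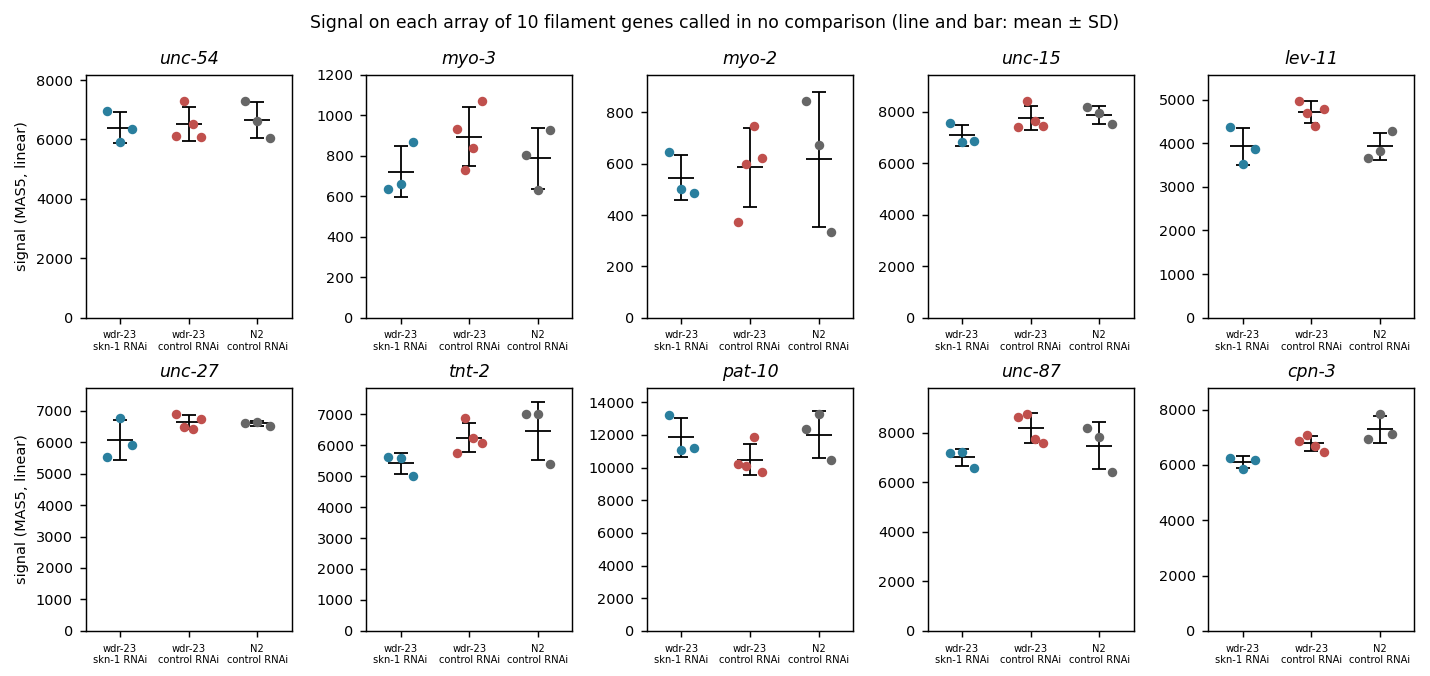
MAS5 signal (linear, y axis from 0) of 10 filament genes that were called in no comparison, with 1 point per array and bars for the mean and SD, for wdr-23 skn-1 RNAi (n = 3), wdr-23 control RNAi (n = 4) and N2 control RNAi (n = 3) on the x axis. For unc-54 all arrays lie between 5904 and 7311 and the groups overlap, while the lev-11 panel shows every wdr-23 control RNAi array above the others.

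Of the 3 genes for giant proteins, 2 rose in wdr-23 control RNAi (18.9% of all tested genes did) and 1 fell with skn-1 RNAi (13.1% did). Twitchin, a giant kinase that lies along the thick filament and modulates contraction, is encoded by unc-22. Its signal was 584, 605 and 594 in wdr-23 skn-1 RNAi, against 653, 824, 824 and 1256 in wdr-23 control RNAi and 439, 426 and 527 in N2 control RNAi. The 3 groups did not overlap, and N2 control RNAi was lowest. Between wdr-23 control RNAi and N2 control RNAi the log2 change was 0.88 ± 0.17 (SE), 1.84-fold, with an adjusted p of 0.00112. The fall in wdr-23 skn-1 RNAi against wdr-23 control RNAi was -0.53 ± 0.17 (adjusted p = 0.034). That call was lost when any 1 wdr-23 skn-1 RNAi array was left out (unc-22 log2 change -0.51, -0.54 and -0.53 without replicates 1, 2 and 3) and without wdr-23 control RNAi replicate 4 (-0.35), the array at 1256. It was also lost with no filter on low signals, without the intensity trend, under median centring (-0.38), with the replicate block (-0.35) and for the mean of the unc-22 probe sets (-0.048). Against N2 control RNAi, wdr-23 skn-1 RNAi was at 0.35 on the log2 scale (adjusted p = 0.309).

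The obscurin relative unc-89, an M-line protein, gave 2027, 2103 and 2248 in wdr-23 skn-1 RNAi, against 2385, 2639, 2408 and 2909 in wdr-23 control RNAi and 2240, 1652 and 2038 in N2 control RNAi. Every wdr-23 control RNAi array lay above all others. The rise against N2 control RNAi was 0.39 ± 0.12 (SE), 1.31-fold (adjusted p = 0.0217), and the change with skn-1 RNAi was -0.28 (adjusted p = 0.103). The unc-89 rise was no longer called without N2 control RNAi replicate 2 (0.27) or wdr-23 control RNAi replicate 4 (0.33), under median centring (0.19), with the replicate block (0.33) or for the mean of its probe sets (0.081). The titin relative ttn-1, whose protein spans part of the sarcomere, was at 0.07 and -0.11 in those comparisons, with 95% intervals of -0.20 to 0.33 and -0.37 to 0.16.

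Of the 7 genes for thin filament regulators, 0 were called between wdr-23 control RNAi and N2 control RNAi or with skn-1 RNAi in the mutant, and 1 fell in wdr-23 skn-1 RNAi against N2 control RNAi. At an unadjusted limma p under 0.05 the counts were 1 higher, 3 lower and 2 lower. The matching shares over all tested genes were 25.1% higher, 19.4% lower and 7.56% lower. Troponin T ties the troponin complex to tropomyosin, and mup-2 encodes its body-wall form. The mup-2 signal was 6178, 5707 and 4984 in wdr-23 skn-1 RNAi, against 6758, 6811, 6380 and 6914 in wdr-23 control RNAi and 7707, 6755 and 7514 in N2 control RNAi. All wdr-23 skn-1 RNAi arrays lay below all others, and the other groups overlapped. The fall in wdr-23 skn-1 RNAi against N2 control RNAi was -0.38 ± 0.10 (SE), 1.3-fold (adjusted p = 0.0328), and against wdr-23 control RNAi the change was -0.26 (adjusted p = 0.0603). The mup-2 call was lost without N2 control RNAi replicate 1 (-0.35) or replicate 3 (-0.36), and without wdr-23 skn-1 RNAi replicate 2 (-0.40) or replicate 3 (-0.30). It was also lost with no filter on low signals, without the intensity trend and with only these groups in the fit.

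The remaining regulators had small changes. With skn-1 RNAi in the mutant, the log2 changes were -0.27 for tropomyosin lev-11 (adjusted p = 0.0689), -0.26 for troponin I tni-3 (adjusted p = 0.0575), -0.20 for troponin T tnt-2 and -0.13 for troponin I unc-27. The troponin C genes tnc-2 and pat-10 were at -0.06 and 0.18. Between wdr-23 control RNAi and N2 control RNAi the 7 regulators ranged from -0.20 (pat-10) to 0.26 (lev-11, adjusted p = 0.062). For tni-3 the arrays were tight within each group, at 1516, 1512 and 1535 in wdr-23 skn-1 RNAi, against 1854, 1785, 1798 and 1870 in wdr-23 control RNAi and 1763, 1778 and 1660 in N2 control RNAi. No tni-3 groups overlapped, although no comparison passed the threshold.

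The 4 genes for actin-binding and actin-turnover proteins were called in no comparison, against 29%, 23% and 6.67% of all tested genes. At an unadjusted p under 0.05 they gave 0, 1 lower and 1 lower in the 3 comparisons. Over all tested genes 19.4% were lower with skn-1 RNAi at that threshold, and 7.56% in wdr-23 skn-1 RNAi against N2 control RNAi. The calponin relative unc-87, which bundles actin, was at -0.22 with skn-1 RNAi in the mutant (unadjusted p = 0.0437, adjusted p = 0.127). Another calponin-like gene, cpn-3, was at -0.26 in wdr-23 skn-1 RNAi against N2 control RNAi (unadjusted p = 0.0134, adjusted p = 0.121). The filament-severing cofilin gene unc-60 and its partner unc-78 were at -0.01 and 0.04 with skn-1 RNAi.

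Attachment, the role with the most genes, had 4 of 12 genes higher in wdr-23 control RNAi than in N2 control RNAi and 2 of 12 lower with skn-1 RNAi in the mutant. Over all tested genes the shares were 18.9% and 13.1%. Integrin-linked kinase, the scaffold on the inner face of integrin, is encoded by pat-4. Its signal was 889, 816 and 886 in wdr-23 skn-1 RNAi, against 1327, 1120, 1314 and 1227 in wdr-23 control RNAi and 842, 913 and 803 in N2 control RNAi. The wdr-23 control RNAi arrays all lay above the others, which overlapped each other. Against N2 control RNAi, pat-4 rose by 0.54 ± 0.11 (SE) on the log2 scale, 1.45-fold (adjusted p = 0.00177). The fall in wdr-23 skn-1 RNAi against wdr-23 control RNAi was -0.52 ± 0.11, 1.43-fold (adjusted p = 0.00305). Between wdr-23 skn-1 RNAi and N2 control RNAi the pat-4 change was 0.02, with a 95% interval of -0.23 to 0.27. Both pat-4 calls held under every alternative that could test the gene, which leaves out the one without suffixed probe sets.

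The LIM-domain protein of unc-95 is needed to assemble dense bodies and M-lines. Its transcript gave 430, 453 and 434 in wdr-23 skn-1 RNAi, against 765, 589.7, 674 and 589 in wdr-23 control RNAi and 438, 506 and 478 in N2 control RNAi. Again all wdr-23 control RNAi arrays were the highest, and the other groups overlapped. The unc-95 rise against N2 control RNAi was 0.44 ± 0.12 (SE), 1.36-fold (adjusted p = 0.0137), and the fall with skn-1 RNAi was -0.55 ± 0.12, 1.46-fold (adjusted p = 0.00478). The rise lost its call without N2 control RNAi replicate 1 (unc-95 log2 change 0.39) and under median centring (0.24). The fall held under every alternative that tested unc-95, whose single probe set is suffixed.

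PINCH, a LIM-domain partner of integrin-linked kinase, is encoded by unc-97. Its signal was 1489, 1945 and 1720 in wdr-23 skn-1 RNAi, against 2176, 2201, 1464 and 3909 in wdr-23 control RNAi and 1521, 1002 and 1567 in N2 control RNAi. The groups overlapped, and 1 array of wdr-23 control RNAi, replicate 4, lay far above the rest. The unc-97 rise against N2 control RNAi was 0.77 ± 0.24 (SE), 1.7-fold (adjusted p = 0.024), and it was no longer called without wdr-23 control RNAi replicate 4 (0.51) or N2 control RNAi replicate 2 (0.56). The unc-97 call was also lost with no filter on low signals, under median centring (0.57) and with the replicate block (0.51). With skn-1 RNAi in the mutant the change was -0.42 (adjusted p = 0.217).

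The integrin alpha chain pat-2, which pairs with the beta chain pat-3 in muscle, gave 561, 710.4 and 690 in wdr-23 skn-1 RNAi, against 732, 779, 609 and 937 in wdr-23 control RNAi and 567, 564 and 548 in N2 control RNAi. All wdr-23 control RNAi arrays lay above N2 control RNAi, and wdr-23 skn-1 RNAi overlapped both. The pat-2 rise in wdr-23 control RNAi against N2 control RNAi was 0.42 ± 0.14 (SE), 1.34-fold (adjusted p = 0.0349). Of the 8 rises it lost its call most often with 1 array left out, namely without N2 control RNAi replicate 1 (0.43), 2 (0.43) or 3 (0.41) and without wdr-23 control RNAi replicate 2 (0.41) or 4 (0.32). The pat-2 call was also lost with no filter on low signals, under median centring (0.22), with the replicate block (0.32) and for the mean of its probe sets (0.19). For pat-3 the change was 0.00 in size, with a 95% interval of -0.33 to 0.33.

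The remaining 8 attachment genes, pat-3 included, were not called. Of these, vinculin deb-1, which links actin to integrin at dense bodies, was at 0.53 in wdr-23 control RNAi against N2 control RNAi (adjusted p = 0.0929) and at -0.59 with skn-1 RNAi (adjusted p = 0.0739). Its arrays were spread out, at 409, 876 and 809 in wdr-23 skn-1 RNAi, against 842, 1024, 814 and 1465 in wdr-23 control RNAi and 793, 661 and 627 in N2 control RNAi. The zinc-finger protein unc-98 was at 0.28 and -0.35, kindlin unc-112 at 0.26 and -0.01, and perlecan unc-52, a basement membrane protein, at 0.26 and -0.02 in the same comparisons. Parvin pat-6 was at 0.12 and -0.21, alpha-actinin atn-1 at 0.08 and -0.14, and the immunoglobulin-domain protein dim-1 at -0.09 and -0.17.

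**Figure D3:**
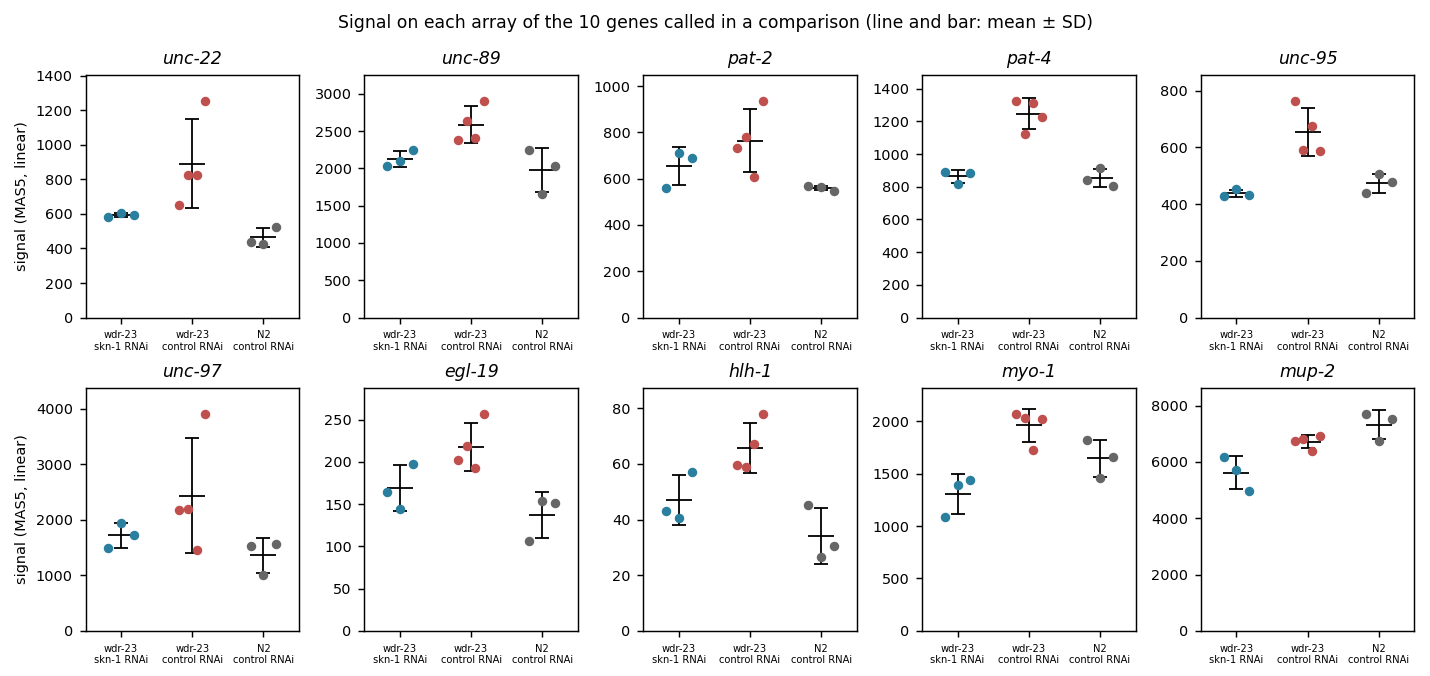
MAS5 signal (linear, y axis from 0) of the 10 genes called in at least 1 comparison, with 1 point per array and bars for the mean and SD, for wdr-23 skn-1 RNAi (n = 3), wdr-23 control RNAi (n = 4) and N2 control RNAi (n = 3) on the x axis. For pat-4 the wdr-23 control RNAi arrays sit between 1120 and 1327, above the other groups, and for unc-97 the array at 3909 stands far above the rest.

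Among the calcium channels, egl-19, the pore of the voltage-gated channel that starts contraction, gave 165, 144 and 198 in wdr-23 skn-1 RNAi, against 202, 219, 193 and 257 in wdr-23 control RNAi and 106, 154 and 151 in N2 control RNAi. The wdr-23 control RNAi arrays lay above N2 control RNAi, and wdr-23 skn-1 RNAi overlapped both. The egl-19 rise against N2 control RNAi was 0.61 ± 0.16 (SE), 1.53-fold (adjusted p = 0.01), and its call was lost without N2 control RNAi replicate 1 (0.46) and under quantile normalization (0.41). With skn-1 RNAi the change was -0.34 (adjusted p = 0.142). The ryanodine receptor unc-68, which releases calcium from internal stores, was at 0.02 against N2 control RNAi and at 0.31 with skn-1 RNAi (adjusted p = 0.156). The myosin chaperone unc-45, which folds the myosin head, was at -0.13 and 0.05 in these comparisons, with 95% intervals of -0.40 to 0.13 and -0.21 to 0.31.

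The MyoD relative hlh-1, a transcription factor of body-wall muscle fate, gave a dim signal. It was 43.2, 40.6 and 57.2 in wdr-23 skn-1 RNAi, against 59.5, 58.7, 67 and 78 in wdr-23 control RNAi and 45.3, 26.5 and 30.4 in N2 control RNAi. All wdr-23 control RNAi arrays were the highest, and the other groups overlapped. The hlh-1 rise against N2 control RNAi was 0.69 ± 0.19 (SE), 1.61-fold (adjusted p = 0.0116), and it was not called without N2 control RNAi replicate 2 (0.58) or under quantile normalization (0.52). With skn-1 RNAi the change was -0.36 (adjusted p = 0.17). In N2 control RNAi its mean log2 level of 5.71 lay at the bound below which probe sets were left out, so the fold understates the ratio of signals.

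Among the genes not called, the 95% interval of the log2 change lay within 0.5 of 0 for 20 of 27 in wdr-23 control RNAi against N2 control RNAi and for 21 of 31 in wdr-23 skn-1 RNAi against wdr-23 control RNAi. In wdr-23 skn-1 RNAi against N2 control RNAi it did so for 23 of 34. For the others the interval reached past 0.5, so a larger change is not excluded.

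Several probe sets were available for 21 of the 35 genes, and they did not always give the same change. The second probe set of unc-97 rose by 0.81 in wdr-23 control RNAi against N2 control RNAi (adjusted p = 1.37e-05) and fell by 0.51 with skn-1 RNAi (adjusted p = 0.00177), so for unc-97 both probe sets were called higher. For pat-4 the second probe set was at 0.32 (adjusted p = 0.0737) and -0.35 (adjusted p = 0.0654), in the direction of the first. For deb-1 the second probe set rose by 0.54 (adjusted p = 0.00534), close to the 0.53 of the first, and stayed above N2 control RNAi in wdr-23 skn-1 RNAi at 0.51 (adjusted p = 0.0347). Which transcripts each probe set reads is not given in the sources used here.

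For unc-22 the probe sets went against each other, with -0.43 on the second (adjusted p = 0.0626) in wdr-23 control RNAi against N2 control RNAi and 0.43 (adjusted p = 0.0728) with skn-1 RNAi. The mean of the unc-22 probe sets was at 0.22 in wdr-23 control RNAi against N2 control RNAi, and not called. The 4 other unc-89 probe sets were at 0.14, -0.38, 0.01 and 0.25 there, and none was called. The second pat-2 probe set was at -0.04 (adjusted p = 0.894), that of egl-19 at 0.17 (adjusted p = 0.521), and that of myo-1 at -0.31 with skn-1 RNAi (adjusted p = 0.113). The other unc-68 probe sets were at -0.38 (adjusted p = 0.172) and -0.09 with skn-1 RNAi, against 0.31 on the brightest. In wdr-23 control RNAi against N2 control RNAi they were at 0.49 (adjusted p = 0.0726) and 0.03. Single further probe sets of genes that were not called on their brightest one fell with skn-1 RNAi, namely lev-11 at -0.74 (adjusted p = 0.0113), ttn-1 at -0.41 (adjusted p = 0.0341) and unc-60 at -0.33 (adjusted p = 0.0479).

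**Figure D4:**
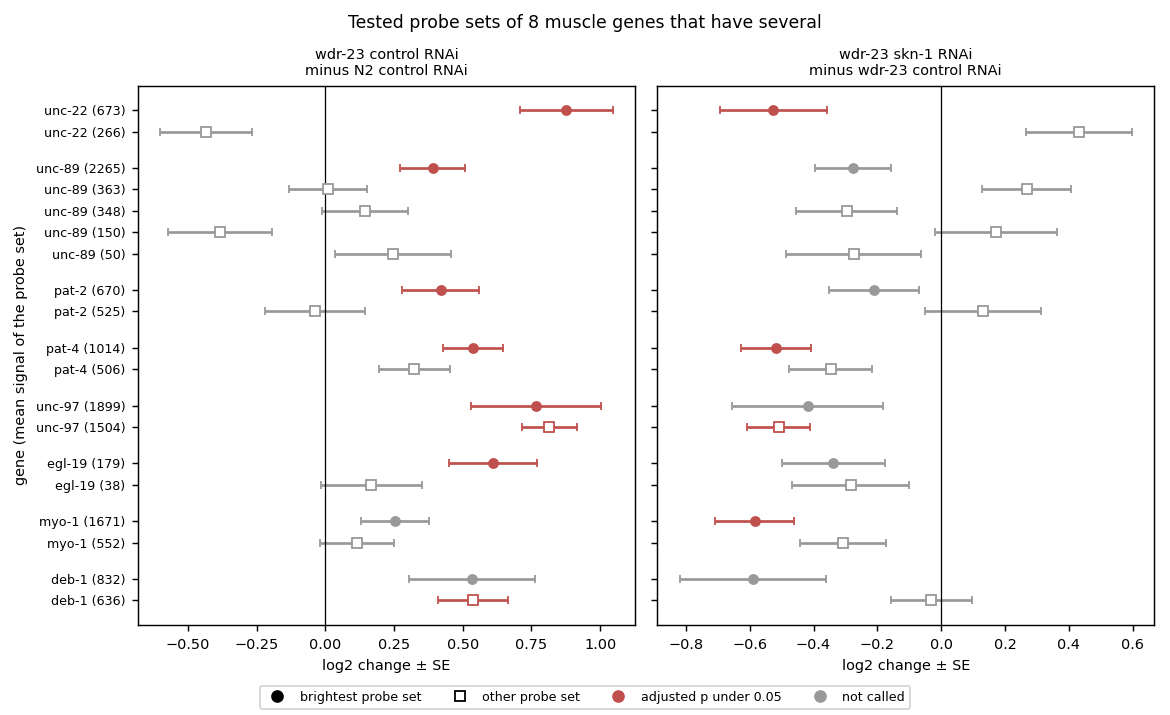
Log2 changes with SE (bars) of every tested probe set of 8 genes that have several, for wdr-23 control RNAi against N2 control RNAi (left) and wdr-23 skn-1 RNAi against wdr-23 control RNAi (right), with filled circles for the brightest probe set, open squares for the others and red for an adjusted p under 0.05. The unc-97 probe sets lie close together at 0.77 and 0.81 on the left, while those of unc-22 lie on opposite sides of 0 at 0.88 and -0.43.

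Beyond the 35 genes, 134 further muscle genes in 7 lists were examined, of which 126 were on the array by name and 114 were bright enough to test. In wdr-23 control RNAi against N2 control RNAi 21 rose and 6 fell (23.7%), and in wdr-23 skn-1 RNAi against wdr-23 control RNAi 6 rose and 21 fell (23.7%), against the 29% and 23% of all tested genes. In wdr-23 skn-1 RNAi against N2 control RNAi 1 fell, the pharyngeal troponin T gene tnt-4 (-0.44, adjusted p = 0.0244), against 6.67% of all tested genes called. That call was lost without N2 control RNAi replicate 1 (-0.42) or 2 (-0.42), and without replicate 1 (-0.43), 2 (-0.44) or 3 (-0.46) of wdr-23 skn-1 RNAi. Further sarcomere and filament genes were called in 0 of 19 cases in wdr-23 control RNAi against N2 control RNAi. At an unadjusted p under 0.05, 1 was higher and 1 lower, against 25.1% and 16.7% of all tested genes. With skn-1 RNAi 3 of 19 fell (13.1% over all tested genes), led by tnt-4 and the muscle splicing factor sup-12 (-0.58 each). The remaining fall, of mlc-3 (-0.27, adjusted p = 0.0441), was called in 2 of the 10 fits with 1 array left out.

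Among 23 further attachment and basement membrane genes, 2 rose and 1 fell in wdr-23 control RNAi against N2 control RNAi (18.9% higher and 10.2% lower over all tested genes). The largest rise was 0.82, of uig-1, whose protein binds UNC-112, and the integrin alpha chain ina-1 rose by 0.45. The phosphatase gene scpl-1 was the 1 that fell (-0.50). With skn-1 RNAi 2 of 23 fell (13.1% over all tested genes), talin tln-1 (-0.49) and zyxin zyx-1 (-0.37). Of 9 genes of the epidermal hemidesmosomes that carry muscle force to the cuticle, 2 rose in wdr-23 control RNAi (mua-6 by 0.47, mua-3 by 0.42). Over all tested genes 18.9% were higher there. Of the same 9 genes 1 fell with skn-1 RNAi (mua-3, -0.45), against 13.1% over all tested genes.

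These small counts turned on single arrays. In wdr-23 control RNAi against N2 control RNAi the 2 attachment genes called higher became 1 without N2 control RNAi replicate 1 or wdr-23 control RNAi replicate 4, and scpl-1 lost its call without replicate 2 or 3 of N2 control RNAi or replicate 1 or 2 of wdr-23 control RNAi. With skn-1 RNAi the 2 attachment genes that fell became 1 without replicate 2 of wdr-23 skn-1 RNAi or replicate 1 of wdr-23 control RNAi. The 2 hemidesmosome genes called higher became 0 without N2 control RNAi replicate 2 and 1 without replicate 1 or 3 of wdr-23 control RNAi. The fall of mua-3 was not called without replicate 1 or 3 of wdr-23 skn-1 RNAi or replicate 1 or 3 of wdr-23 control RNAi, and 2 hemidesmosome genes fell without replicate 2 or 4 of wdr-23 control RNAi.

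The dystrophin complex, which steadies the muscle membrane, had 5 of 9 genes higher in wdr-23 control RNAi than in N2 control RNAi, led by islo-1 (0.65) and the gamma-sarcoglycan gene sgn-1 (0.56). Over all tested genes 18.9% were higher. With skn-1 RNAi 5 of 9 fell (13.1% over all tested genes), led by the alpha-sarcoglycan gene sgca-1 (-0.68) and the syntrophin gene stn-1 (-0.55). The 5 higher became 2 without N2 control RNAi replicate 1 and 3 without N2 control RNAi replicate 2, N2 control RNAi replicate 3 or wdr-23 control RNAi replicate 3. The 5 lower became 2 without replicate 1 or 2 of wdr-23 skn-1 RNAi, and 3 without its replicate 3 or without replicate 1 of wdr-23 control RNAi. Quantile normalization left 1 higher and 3 lower, and median centring left 2 and 2.

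Of 25 excitation and calcium handling genes, 6 rose and 1 fell in wdr-23 control RNAi against N2 control RNAi, led by lev-10 (0.76), which gathers acetylcholine receptors at the muscle surface, and the degenerin-family channel unc-105 (0.65). Over all tested genes 18.9% were higher and 10.2% lower. The fall was of unc-93, a regulator of a potassium channel (-0.53, adjusted p = 0.0495), and it was called in 1 of the 10 fits with 1 array left out, where its change ran from -0.67 to -0.35. With skn-1 RNAi 4 of 25 fell (13.1% over all tested genes), led by the potassium channel egl-36 (-0.74) and the GABA receptor unc-49 (-0.56). The 6 higher became 3 without N2 control RNAi replicate 2 or replicate 3, and under quantile normalization or median centring 2 were higher. The 4 lower became 2 without wdr-23 skn-1 RNAi replicate 1 or wdr-23 control RNAi replicate 4.

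Of 18 muscle chaperone and protein turnover genes, 3 fell in wdr-23 control RNAi against N2 control RNAi (10.2% over all tested genes), led by the Hsp70 cofactor bag-1 (-0.48) and the ubiquitin chain elongation factor ufd-2 (-0.42). With skn-1 RNAi 5 rose and 1 fell (9.94% and 13.1% over all tested genes), led by the ubiquitin ligase chn-1 (0.54) and bag-1 (0.50), with the small heat shock gene hsp-43 lower (-0.36). The 3 that fell became 1 without N2 control RNAi replicate 1, wdr-23 control RNAi replicate 1 or wdr-23 control RNAi replicate 4. Under median centring they became 9, where 3545 of all 12061 tested genes were lower. The 5 that rose became 3 without replicate 1 or 3 of wdr-23 skn-1 RNAi, and also without replicate 1 or 4 of wdr-23 control RNAi. The hsp-43 call was lost without replicate 1 (-0.35), 2 (-0.38) or 3 (-0.35) of wdr-23 skn-1 RNAi and without replicate 1 (-0.32) or 3 (-0.33) of wdr-23 control RNAi.

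Of 11 genes for transcription factors and signals of the muscle lineages, 6 rose and 1 fell in wdr-23 control RNAi against N2 control RNAi (18.9% higher and 10.2% lower over all tested genes), led by mef-2 (0.91) and the Sox gene sem-2 (0.80), with the T-box gene tbx-9 lower (-0.46). With skn-1 RNAi 5 fell and 1 rose (13.1% and 9.94% over all tested genes), led by the homeobox gene ceh-34 (-0.81) and by sem-2 and mef-2 (-0.72 each), with tbx-9 higher (0.56). The 6 higher became 1 without N2 control RNAi replicate 1, 2 without N2 control RNAi replicate 3 and 3 without wdr-23 control RNAi replicate 3. Under quantile normalization and under median centring 2 were higher and 1 lower. The 5 lower became 2 without wdr-23 skn-1 RNAi replicate 1, and the fall of tbx-9 was not called without N2 control RNAi replicate 1 (-0.40).

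**Figure D5:**
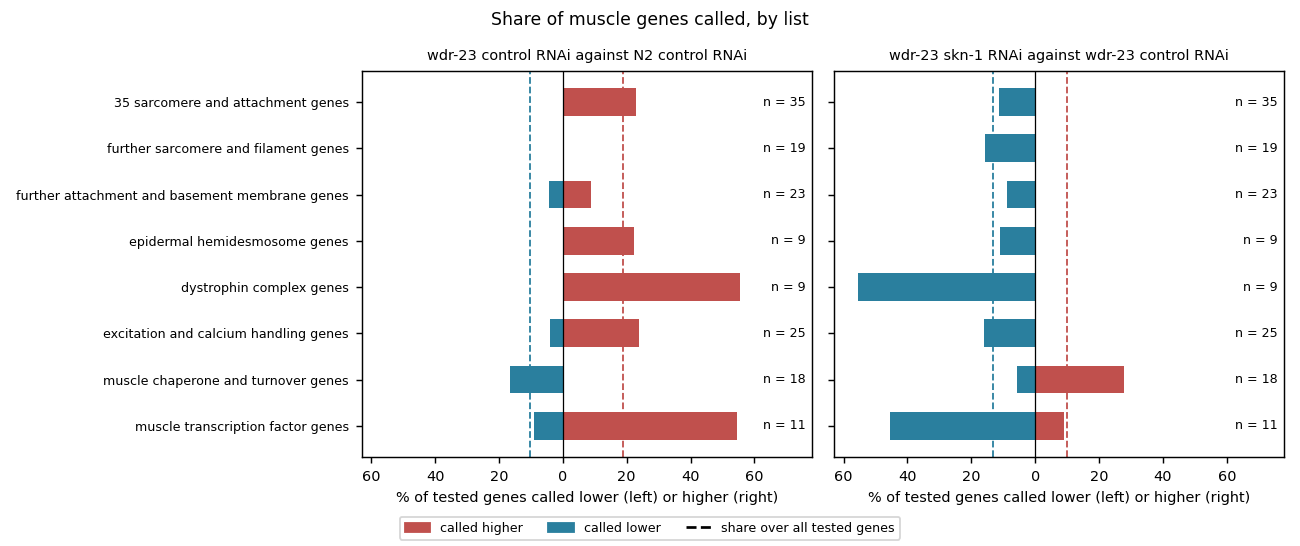
Share of tested genes called higher (right of 0, red) or lower (left of 0, blue) for the 35 genes and each of the 7 further muscle lists (y axis, with the number tested), for wdr-23 control RNAi against N2 control RNAi and for wdr-23 skn-1 RNAi against wdr-23 control RNAi, with dashed lines at the share over all tested genes. The 35 genes lie at 22.9% higher in the first and at 11.4% lower in the second, against 18.9% and 13.1% over all tested genes.

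Markers of other tissues moved in the same comparisons, where over all tested genes 18.9% rose and 10.2% fell in wdr-23 control RNAi and 9.94% rose and 13.1% fell with skn-1 RNAi. Of 8 pharyngeal markers, which include myo-1, myo-2 and tnc-2, 0 were called in wdr-23 control RNAi against N2 control RNAi. At an unadjusted p under 0.05, 1 was higher, against 25.1% of all tested genes. With skn-1 RNAi 4 fell, namely the fate gene ceh-22 (-0.66), marg-1 (-0.73), tnt-4 and myo-1. The others were not called, with myo-2 at -0.07, myo-5 at -0.09, tnc-2 at -0.06 and tni-4 at -0.28. The falls of tnt-4 and ceh-22 were also counted in the further muscle lists, and that of myo-1 among the 35 genes. The summed signal of all 8 markers was 5874 to 5982 in wdr-23 skn-1 RNAi, against 7396 to 7788 in wdr-23 control RNAi and 6407 to 7571 in N2 control RNAi. Against N2 control RNAi, marg-1 (-0.86) and tnt-4 fell in wdr-23 skn-1 RNAi, where 2.55% of all tested genes were lower and 4.12% higher. Other tissues had calls there too. Epidermal dpy-7 (0.61) and wrt-2 (0.58), intestinal elt-2 (0.54) and the sperm gene spe-11 (0.53) were higher, and intestinal act-5 (-0.37) was lower. Among these only the marg-1 call held with any 1 array left out. No neuronal or germ line marker was called. The summed signal of the 35 genes was 92343 to 96863 in wdr-23 skn-1 RNAi, against 102045 to 105686 in wdr-23 control RNAi and 96279 to 104265 in N2 control RNAi.

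Of 7 epidermal markers, 5 rose and 1 fell in wdr-23 control RNAi against N2 control RNAi, and 5 fell and 1 rose with skn-1 RNAi. The sums over all 7 were 11403 to 12804 in wdr-23 skn-1 RNAi, against 13339 to 15528 in wdr-23 control RNAi and 12043 to 13574 in N2 control RNAi. A large part of them was col-19 (mean 6927, 6791 and 7977 in that order of groups), which was called in no comparison. Of 7 tested neuronal markers 2 rose in wdr-23 control RNAi, or 4 without N2 control RNAi replicate 3, and 3 fell with skn-1 RNAi, with sums over 8 markers of 5912 to 6277 in wdr-23 skn-1 RNAi, against 7147 to 8067 in wdr-23 control RNAi and 5637 to 6330 in N2 control RNAi. Among the neuronal falls, that of unc-64 (-0.56) was called in 5 of the 10 fits with 1 array left out. Of 7 germ line markers 3 rose with skn-1 RNAi in the mutant. Over all 7 the sums were 19567 to 20519 in wdr-23 skn-1 RNAi, against 15796 to 16567 in wdr-23 control RNAi and 16636 to 17897 in N2 control RNAi. Of 7 intestinal markers 2 rose and 2 fell in wdr-23 control RNAi against N2 control RNAi, and 2 rose and 3 fell with skn-1 RNAi. The 2 intestinal falls became 0 without N2 control RNAi replicate 2 and 1 without replicate 1 or 3 of N2 control RNAi, replicate 2 or 3 of wdr-23 control RNAi, or replicate 1, 2 or 3 of wdr-23 skn-1 RNAi. The 2 rises with skn-1 RNAi became 1 without any 1 wdr-23 skn-1 RNAi array or without wdr-23 control RNAi replicate 2. Among the 3 intestinal falls with skn-1 RNAi, that of ifb-2 (-0.42) was called in 5 of the 10 fits with 1 array left out. Of 6 sperm markers 3 rose in wdr-23 control RNAi. Over all 6 the sums were 8862 to 9385 in wdr-23 skn-1 RNAi, against 7486 to 8664 in wdr-23 control RNAi and 6982 to 8344 in N2 control RNAi. Most of these sums was msp-142 (mean 7691, 6450 and 6459 in that order of groups), which was called in no comparison. No marker of any of these tissues had a signal of 0. The part of tissue proportions in the changes of the muscle genes was not tested.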

How the data were processed

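RNA from 10 whole-animal samples was hybridised to Affymetrix arrays. The authors deposited linear intensity values, which are MAS5 signals per the submitters' processing notes. No version, detection call, scan date or batch was used. Trimmed means (2% at each end) were 500.1 on every array, so a common scale had been set. The table held 22625 probe sets, of which 77 controls were left out, 20766 had 1 gene, 887 several and 895 none. Symbols came from the platform annotation, and 20701 matched RefSeq gene numbers with 0 changed.

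Signals were taken to log2 after adding 19, the 20th percentile of all signals, and the lowest 30% of probe sets were left out (15783 tested). Folds are on this scale and understate changes of dim genes. All 10 arrays entered 1 fit (limma 3.58.1, R 4.3.3, lmFit and eBayes with intensity trend, two-sided), with Benjamini-Hochberg adjustment over the whole tested table of each comparison and calls under 0.05. The fit was tested on simulated data with independent normal noise and no shift of whole arrays, so that test cannot speak to the scaling. Tables used python 3.11.15. The replicates are called biological in the labels, and precision is limited by how many arrays there are. No 2 arrays were identical. No block was used, since the labels do not say that a replicate number marks a shared day or batch. Same-numbered arrays did not deviate together (correlations -0.157 to 0.176 over 9 pairs, against -0.175 to 0.174 over 24 others).

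The members and gene lists were chosen with earlier results of these data known. Members called in any comparison, the myosin heavy chains and unc-15 are given array by array, and in each further list the 2 largest called rises and falls are named. Genes named outside this rule were chosen after their values were seen. Alternatives covered pseudocount, low-signal filter, scaling, variance model, arrays in the fit, replicate block, probe sets and single arrays. Sequences were not used here.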

Additional observations from a re-analysis of the deposited data

Results flagged for a closer look

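The pharyngeal myosin gene myo-1 had 1 array apart from its group. Its signal in wdr-23 control RNAi was 1724 on replicate 3, against 2021, 2031 and 2070 on the other arrays of that group, so the gap to its neighbour was 0.856 of the whole range, above Dixon's 95% critical value for 4 arrays. It was the only such case among the 35 genes, in the only group of 4 arrays. Chance alone gives about 1 in 20 for each gene, and all 35 were examined, so 1 case is no more than chance gives. The array lies towards the wdr-23 skn-1 RNAi values of 1090, 1393 and 1441, and the fall of myo-1 with skn-1 RNAi was called without it.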

How the results depend on the processing

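Of the 13 calls on named members, those of pat-4 in both comparisons, and of myo-1 and unc-95 with skn-1 RNAi, kept direction and call under every alternative that could test them. Without suffixed probe sets none of these genes was tested. In wdr-23 control RNAi against N2 control RNAi, the 8 genes called higher became 4 with median centring, 5 with the replicate block, 5 without suffixed probe sets (17 members tested), and 4 to 9 with 1 array left out. They became 6 for the mean of a gene's own probe sets, with 5 of the 8 shared. With no filter on low signals they became 6, and with the lowest 50% left out 7 of 34 tested. The 0 called lower became 6 with median centring. That setting called 1385 of all 12061 tested genes higher and 3545 lower. Without suffixed probe sets the pat-2 change was -0.038, since another probe set then stands for the gene. In wdr-23 skn-1 RNAi against wdr-23 control RNAi, the 4 called lower became 7 with quantile normalization, 1 without suffixed probe sets and 3 to 5 with 1 array left out. They became 6 for the mean of a gene's own probe sets, with 3 of the 4 shared, and 5 with the lowest 50% left out. Median centring, the replicate block and leaving out the intensity trend each gave 3. The 0 called higher became 2 with median centring and 0 to 1 with 1 array left out (unc-68, without wdr-23 control RNAi replicate 1). Of all 12061 tested genes, median centring called 2660 higher and 1069 lower. Quantile normalization called 1279 of 12062 higher and 1310 lower. In wdr-23 skn-1 RNAi against N2 control RNAi, the 1 called lower (mup-2) became 0 with no filter on low signals, without the intensity trend, with only the 2 groups in the fit and without suffixed probe sets, and 0 to 1 with 1 array left out. For counts that moved, other than by fewer members or arrays tested, the cause was not tested. Pseudocounts of 5 and 50 left all counts as they were. The replicate block drops wdr-23 control RNAi replicate 4, whose number no other group has. The hlh-1 signal in N2 control RNAi lay at the bound of the low-signal filter.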
